A study of Mus musculus with 516 samples.

Results

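Gal, Npy, Nts and Adcyap1 encode the precursors of galanin, neuropeptide Y, neurotensin and PACAP, peptides that signal from sensory neurons. Gpr151 encodes an orphan receptor whose sequence resembles the galanin receptors. These 5 genes were chosen by name, with earlier results of these data known. All 5 have a row among the 11251 genes of the table. They were followed in 516 single cells from dorsal root ganglia, where the bodies of the mouse's sensory neurons lie. The groups were cultured and naive cells of CAST/Ei, an inbred strain derived from castaneus mice, and cultured and naive cells of C57BL/6, the strain of the reference genome. Of 210 cultured cells 99 were CAST/Ei and the others C57BL/6, and of 306 naive cells 56.9% were CAST/Ei. Cultured cells, labelled injured, stood for axotomy in vitro: dissociated cells grew on plastic for 48 h, were given ara-C, which stops dividing cells, after 24 h, and were lifted with trypsin. Naive cells were captured without culture, although dissociation also cuts their axons. All 4 groups passed a mesh of 35 µm and a Percoll step of density 1.040 before capture on a microfluidic chip. Neither animals nor their ages, cultures or capture runs are named in the labels, so each group counts as 1 sample. No difference could be tested, and every interval given covers counting error only.

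Galanin, neuropeptide Y and PACAP are amidated peptides, cut from larger precursors inside dense-core granules and released on activity. They act on G protein-coupled receptors, galanin on Galr1 to Galr3, neuropeptide Y on the Y receptors and PACAP on Adcyap1r1, Vipr1 and Vipr2, while neurotensin binds Ntsr1, Ntsr2 and the sorting receptor Sort1. In uninjured ganglia galanin and PACAP belong to small peptide-rich neurons, neurotensin marks itch neurons that also make somatostatin, and neuropeptide Y is hardly made. Cutting a peripheral nerve is known to raise galanin, neuropeptide Y and PACAP in the cell bodies, and Gpr151 is known as a transcript of injured ganglia.

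In the GENCODE annotation of GRCm38 (mm10), each of the 5 is a protein-coding gene that overlaps no other annotated gene. Gal lies on the minus strand of chromosome 19 (3409915 to 3414544), Npy on the plus strand of chromosome 6 (49822710 to 49829507) and Nts on the minus strand of chromosome 10 (102481756 to 102490486). Adcyap1 lies on the plus strand of chromosome 17 (93199017 to 93206537). The 250 bases before the RefSeq start of the 4 peptide genes (build GRCm38.p6) are shown because these transcripts were higher in cultured cells of both strains. Capitals mark matches, on either strand, to the AP-1 site TGANTCA, the CRE-like site TGANNTCA, the CRE core TGACG or the STAT site TTCNNNGAA.
Nts, chr10:102490419-102490668, minus strand: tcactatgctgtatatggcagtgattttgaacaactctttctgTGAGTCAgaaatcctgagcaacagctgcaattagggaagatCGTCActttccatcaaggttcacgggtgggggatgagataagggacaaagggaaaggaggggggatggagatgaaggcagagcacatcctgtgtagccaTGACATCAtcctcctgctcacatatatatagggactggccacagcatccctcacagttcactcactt
Adcyap1, chr17:93198767-93199016, plus strand: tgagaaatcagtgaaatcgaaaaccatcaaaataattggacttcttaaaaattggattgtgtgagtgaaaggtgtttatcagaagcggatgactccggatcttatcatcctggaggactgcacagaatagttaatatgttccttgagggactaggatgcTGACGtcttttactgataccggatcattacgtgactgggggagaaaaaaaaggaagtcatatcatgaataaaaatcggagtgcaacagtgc
Gal, chr19:3414545-3414794, minus strand: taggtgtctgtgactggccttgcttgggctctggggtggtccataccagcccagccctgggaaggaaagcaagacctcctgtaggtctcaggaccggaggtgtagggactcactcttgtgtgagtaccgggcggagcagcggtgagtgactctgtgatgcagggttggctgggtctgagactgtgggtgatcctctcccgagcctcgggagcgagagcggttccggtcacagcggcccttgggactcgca
Npy, chr6:49822460-49822709, plus strand: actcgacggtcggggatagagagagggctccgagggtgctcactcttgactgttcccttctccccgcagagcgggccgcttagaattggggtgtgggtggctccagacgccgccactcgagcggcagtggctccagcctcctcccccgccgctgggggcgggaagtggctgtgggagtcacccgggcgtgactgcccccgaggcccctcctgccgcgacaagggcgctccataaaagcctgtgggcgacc
The Nts window held 3 matches, an AP-1 site from -207 to -201, a CRE-like site from -67 to -60, counted from the start, and between them a CRE core read on the other strand. The Adcyap1 window held 1 CRE core from -91 to -87, which a second RefSeq start of this gene puts at -242 to -238. Neither the Gal nor the Npy window held a match before the start. Gal had a CRE core at bases 20 to 24 after its start, which the 250 bases shown leave out. Among 32851 RefSeq promoter windows of 300 bases, which reach past the start, 7.81% held the AP-1 letters and 14.1% the CRE-like letters. The CRE core was in 20.8% of them and the STAT letters in 8.30%. In windows of that length, Gal too held a CRE core. A match describes the letters only.

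Cells were sorted into classes by clustering that left out the 5 genes, and clusters were named by marker genes. Cultured and naive neuron-like cells fell into different clusters, apart from 2 cultured cells. The cultured ones were cluster 3, led by the regeneration genes Serpinb1a, Sprr1a and Sox11 (29 CAST/Ei and 23 C57BL/6 cells), and cluster 5, led by Nkain1 and Inhbb (31 CAST/Ei and 10 C57BL/6 cells). Neither cluster had a neuron marker among its leading 10 genes, and both were named from the neuron marker mean alone. Neuron-like cells numbered 61 in cultured CAST/Ei and 34 in cultured C57BL/6, and 272 in the naive groups, 57.4% of them CAST/Ei. The other cultured cells were glia-like (cluster 10, with Gdnf and Gfap, mostly CAST/Ei, and cluster 9, led by Sfrp1 and Crabp1, in C57BL/6) or fell into the unnamed cluster 2, where fibroblast markers were highest. The other naive cells formed the unnamed cluster 6, whose leading genes included Flt1, a VEGF receptor, and the interferon-induced Tgtp2. Depth ran from 13932 reads per cell upward, with a median of 839147. Levels are given as CPM, the reads of a gene per 1000000 reads summed over the cells of a class. A cell is said to hold a gene when at least 5 reads remained after it was thinned to 200000 reads. Thinning left out 9 shallower cells of cultured CAST/Ei, 11 of naive CAST/Ei, 14 of cultured C57BL/6 and 8 of naive C57BL/6, so that shares of neuron-like cells are over 54 cultured CAST/Ei and 26 cultured C57BL/6 cells and over 257 naive ones, 57.6% of them CAST/Ei.

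Summed over cells, each of the 5 stood higher in cultured than in naive neuron-like cells of both strains. Counted at 2-fold, 5 of 5 were higher in CAST/Ei, where 22.7% of all 11251 genes were at least 2-fold higher, and 5 of 5 in C57BL/6, where 20.4% were. The 5 were chosen with earlier results of these data known, so this contrast with all genes is a description and no independent test. The neuron markers of these cells summed to 14030 CPM in cultured and 19885 CPM in naive CAST/Ei cells, and to 13702 CPM in cultured and 19593 CPM in naive C57BL/6 cells. Marker genes of other cells moved with culture too. Of 15 satellite and Schwann markers, 11 were at least 2-fold higher in cultured CAST/Ei neuron-like cells, summing to 3120 CPM against 2416 CPM in naive ones, and 12 in cultured C57BL/6 cells, summing to 3167 CPM against 2724 CPM in naive ones. The 11 fibroblast markers summed to 1393 CPM in cultured against 467 CPM in naive CAST/Ei cells, and to 1133 CPM in cultured against 381 CPM in naive C57BL/6 cells. All 10 listed genes of cell division were higher in cultured cells of both strains, summing to 1116 CPM in cultured against 15.3 CPM in naive CAST/Ei cells, and to 1321 CPM in cultured against 8.78 CPM in naive C57BL/6 cells. None of these markers was at 0 in the neuron-like cells of any group. Their part in the results was not tested. Because cultured and naive cells are different cells, more transcript per neuron and another choice of surviving or captured neurons cannot be told apart.

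Gal, the galanin gene, was held by nearly every cultured CAST/Ei neuron-like cell, and by fewer than 1 in 2 of the neuron-like cells of the other groups. Per cell it ranged from 9.34 to 95352 CPM in cultured CAST/Ei neuron-like cells, with a median of 2673, and from 0 to 6920 CPM in naive ones, with a median of 1.01. In C57BL/6 it ranged from 0 to 20883 CPM in cultured neuron-like cells, with a median of 11.7, and from 0 to 2207 CPM in naive ones, with a median of 0. The ranges overlapped in both strains, but the lower quartile of cultured CAST/Ei cells, 1115 CPM, lay far above the upper quartile of naive ones, 19.6 CPM. Summed over cells, Gal stood at 3987 CPM (95% interval 3971 to 4003) in cultured and 199 CPM (196 to 201) in naive CAST/Ei neuron-like cells, 20.1-fold higher. In C57BL/6 the sums were 1444 CPM (1426 to 1462) in cultured and 161.4 CPM (158.8 to 163.95) in naive cells, 8.95-fold higher. Only 0.764% of all genes had a larger log2 ratio in CAST/Ei and 2.81% in C57BL/6.

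The number of cells that held Gal differed more between strains after culture than before it. Of thinned neuron-like cells, 52 of 54 cultured CAST/Ei cells held it (96.3%, 87.3 to 99.5), against 35 naive ones (23.6%, 17.1 to 31.3). In C57BL/6, 11 of 26 cultured cells held it (42.3%, 23.4 to 63.1), against 22 naive ones (20.2%, 13.1 to 28.9). Unthinned and with any read counted, the shares were 100% in cultured and 52.6% in naive CAST/Ei cells, and 82.4% in cultured and 37.9% in naive C57BL/6 cells. Among the holders, the median level was 2654 CPM in cultured and 628 CPM in naive CAST/Ei cells, and 769 CPM in cultured and 418 CPM in naive C57BL/6 cells. Both the share of holders and the level in a holder were thus higher after culture, although the intervals of the C57BL/6 shares overlapped. Of cultured C57BL/6 glia-like cells, 36.4% held Gal as well, close to the neuron-like share. In the extreme cell, of cluster 5, Gal took 9.54% of all reads, and 9 cultured CAST/Ei neuron-like cells reached 10000 CPM, against 1 of C57BL/6. That 1 C57BL/6 cell, of cluster 3, supplied 63.97% of the Gal reads of its class. Without it, cultured C57BL/6 neuron-like cells stood at 544 CPM, and leaving out the highest cell of both classes gave a log2 ratio of 1.82 in place of 3.15.

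**Figure D1:**
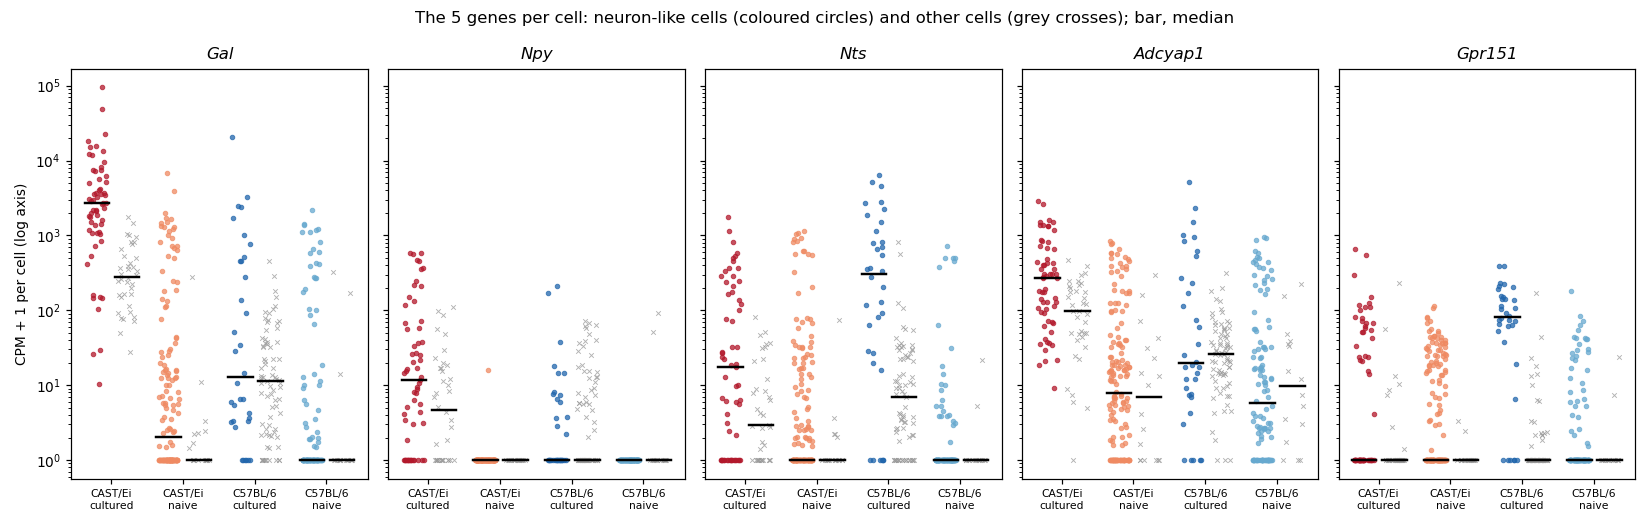
Level of each of the 5 genes in every cell (CPM + 1, log axis) in cultured and naive CAST/Ei and cultured and naive C57BL/6 cells; coloured circles are neuron-like cells, grey crosses are all other cells, and bars are medians over cells. Median Gal in neuron-like cells is 2673 CPM in cultured and 1.01 CPM in naive CAST/Ei cells, and Npy is nearly absent from naive cells.

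Npy, the neuropeptide Y gene, was close to undetected in naive neurons and was held by a part of the cultured ones. Cultured CAST/Ei neuron-like cells ranged from 0 to 589 CPM per cell, with a median of 10.7, and naive ones held no read except for 1 cell at 15.02 CPM. Cultured C57BL/6 neuron-like cells ranged from 0 to 211 CPM, with a median of 0, and no naive one held a read. The naive groups thus lay at the bottom of the cultured range. The sums were 120.5 CPM (117.8 to 123.2) in cultured against 0.0691 CPM (0.0345 to 0.124, 11 reads) in naive CAST/Ei neuron-like cells, a log2 ratio of CPM + 1 of 6.83. In C57BL/6 they were 19.7 CPM (17.6 to 21.9, 332 reads) in cultured cells against 0 reads in naive ones. With that 0 set at 3 reads over the class, 0.0317 CPM, the fold of the measured level is at least 620, and the lower limit of the fold with the counting error of both classes is 501. Thinned cells that held Npy numbered 22 of 54 in cultured CAST/Ei (40.7%, 27.6 to 54.97) and 0 in naive CAST/Ei, which allows up to 2.03%. They numbered 2 of 26 in cultured C57BL/6 (7.69%, 0.946 to 25.1) and 0 in naive C57BL/6, which allows up to 2.75%. Unthinned, 73.8% of cultured CAST/Ei and 44.1% of cultured C57BL/6 neuron-like cells had a read. Those 2 cells, both of cluster 5, supplied 47.9% and 42.5% of the Npy reads of cultured C57BL/6 neuron-like cells, and without the higher one the level was 10.7 CPM. Of the naive cells outside the neuron-like class, 2 C57BL/6 cells of cluster 6 held Npy, at 50.9 and 91.4 CPM.

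Nts, the neurotensin gene, showed the reverse strain order. It ranged from 0 to 1743 CPM per cell in cultured CAST/Ei neuron-like cells, with a median of 16.3, and from 0 to 1131 CPM in naive ones, with a median of 0. In C57BL/6 it ranged from 0 to 6465 CPM in cultured neuron-like cells, with a median of 302, and from 0 to 722 CPM in naive ones, with a median of 0. The CAST/Ei ranges overlapped almost wholly, while the median cultured C57BL/6 cell lay above the great majority of naive ones, whose upper quartile was 0. Summed, Nts stood at 138.8 CPM (135.9 to 141.8) in cultured and 67.1 CPM (65.9 to 68.4) in naive CAST/Ei cells, 2.07-fold higher, a ratio that 21.8% of all genes exceeded. In C57BL/6 it stood at 987 CPM (973 to 1003) in cultured and 41.3 CPM (40.01 to 42.6) in naive cells, 23.9-fold higher, a ratio that 0.667% of genes exceeded. Its holders were 27 of 54 cultured (50%, 36.1 to 63.9) and 31 naive CAST/Ei cells (20.9%, 14.7 to 28.4), and 21 of 26 cultured (80.8%, 60.6 to 93.4) and 7 naive C57BL/6 cells (6.42%, 2.62 to 12.8). Unthinned and with any read, the shares were 70.5% in cultured and 48.1% in naive CAST/Ei cells, and 82.4% in cultured and 21.6% in naive C57BL/6 cells. The CAST/Ei difference sat at the edge of 2-fold: without the highest cell of each class the log2 ratio was 0.80 in place of 1.04, and without the cells richest in glial markers it was 0.69.

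Adcyap1, the PACAP gene, was higher after culture by similar factors in the 2 strains. Per cell it ranged from 8.17 to 2903 CPM in cultured CAST/Ei neuron-like cells, with a median of 269, and from 0 to 829 CPM in naive ones, with a median of 6.90. In C57BL/6 it ranged from 0 to 5186 CPM in cultured cells, with a median of 18.5, and from 0 to 939 CPM in naive ones, with a median of 4.72. Every cultured CAST/Ei neuron-like cell had a read, whereas the C57BL/6 medians lay close together and the cultured sum came from a few cells. The sums were 671 CPM (664 to 677) in cultured and 92.2 CPM (90.7 to 93.7) in naive CAST/Ei cells, 7.28-fold higher. They were 724 CPM (711 to 737) in cultured and 125.6 CPM (123.3 to 127.9) in naive C57BL/6 cells, 5.76-fold higher, of which 1 cell supplied 37.2% of the cultured reads. Without that cell the cultured level was 479 CPM, and without the highest cell of both C57BL/6 classes the log2 ratio was 2.03 in place of 2.52. Holders were 49 of 54 cultured (90.7%, 79.7 to 96.9) and 49 naive CAST/Ei cells (33.1%, 25.6 to 41.3), and 11 of 26 cultured (42.3%, 23.4 to 63.1) and 37 naive C57BL/6 cells (33.9%, 25.1 to 43.6). Unthinned and with any read, the shares were 100% in cultured and 72.4% in naive CAST/Ei cells, and 85.3% in cultured and 69.8% in naive C57BL/6 cells.

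Gpr151, the orphan receptor gene, which lies on the minus strand of chromosome 18 (42577881 to 42579652), was held by more cultured than naive neuron-like cells in both strains, and most of all in cultured C57BL/6 cells. Cultured CAST/Ei cells ranged from 0 to 657 CPM, with a median of 0, and naive ones from 0 to 114.2 CPM, with a median of 0. Cultured C57BL/6 cells ranged from 0 to 393 CPM, with a median of 79.5, and naive ones from 0 to 181 CPM, with a median of 0. Only in cultured C57BL/6 cells was the median above 0, and their lower quartile, 40.8 CPM, exceeded the upper quartile of naive ones, 3.31 CPM. The sums were 47.2 CPM (45.5 to 48.9) in cultured and 13.5 CPM (12.9 to 14.1) in naive CAST/Ei cells, 3.50-fold higher. They were 82.03 CPM (77.8 to 86.5) in cultured and 7.95 CPM (7.39 to 8.54) in naive C57BL/6 cells, 10.3-fold higher. A single cell of cluster 5 supplied 51.1% of the cultured CAST/Ei reads, and without it that level was 23.9 CPM and, without the highest naive cell as well, the log2 ratio 0.84 in place of 1.73. The holders were 22 of 54 cultured (40.7%, 27.6 to 54.97) and 36 naive CAST/Ei cells (24.3%, 17.7 to 32.1), and 19 of 26 cultured (73.1%, 52.2 to 88.4) and 15 naive C57BL/6 cells (13.8%, 7.91 to 21.7). Unthinned and with any read, the CAST/Ei shares lay together, at 47.5% in cultured and 46.8% in naive cells, while those of C57BL/6 were 82.4% in cultured and 31.03% in naive cells.

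Over all cells of a group, where the share of neurons also counts, cultured and naive groups differed less. Neuron-like cells made up 61.6% of cultured and 89.7% of naive CAST/Ei cells, and 30.6% of cultured and 87.9% of naive C57BL/6 cells. At 2-fold, 4 of the 5 stood higher in CAST/Ei, against 22.5% of all genes, and 3 of 5 in C57BL/6, against 23% of all genes. The exceptions were Nts in CAST/Ei (log2 ratio 0.41) and Gal (0.92) and Adcyap1 (0.45) in C57BL/6. Without the highest cell of each group, Gal in C57BL/6 stood at -0.26, so its sum over all C57BL/6 cells rested on 1 cell. In such sums, fewer neurons and less transcript per neuron cannot be told apart.

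Before culture, most reads of Gal, Adcyap1 and Nts lay in 1 neuron cluster each, although lower counts were found in others. Gal and Adcyap1 shared cluster 4, the peptidergic cells led by Tac1, the substance P gene, and Trpv1, the capsaicin receptor, which held cells of both strains. There, 24 of 26 CAST/Ei and 18 of 22 C57BL/6 cells held Gal, at 1021 CPM (1010 to 1033) and 678 CPM (667 to 689). Adcyap1 was held by 26 of 26 CAST/Ei and 20 of 22 C57BL/6 cells of this cluster, at 433.5 CPM (426 to 441) and 499 CPM (490 to 509). Cluster 4 made up 17.3% of naive CAST/Ei and 19.8% of naive C57BL/6 neuron-like cells but carried 95.4% and 94.8% of the Gal reads and 87.2% and 89.7% of the Adcyap1 reads. Of the naive cells that held Adcyap1, 53.1% of CAST/Ei and 54.1% of C57BL/6 ones were in it. Adcyap1 also reached 6 of 8 thinned cells of cluster 15, large C57BL/6 neurons with the neurofilament gene Nefh, at a lower level of 33.9 CPM. Elsewhere it was held by 14 of 54 cells of cluster 1, 6 of 18 of cluster 13 and 1 of 24 of cluster 12. In the unnamed cluster 6, outside the neuron-like class, 5 of 15 cells of each strain held it (33.3%).

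Nts belonged to cluster 14, the itch cells led by Sst and Nppb, the genes of somatostatin and natriuretic peptide B. All 12 thinned CAST/Ei and all 6 C57BL/6 cells of this cluster held it, with 200.6 to 1065 CPM per CAST/Ei cell and 379 to 722 CPM per C57BL/6 cell. These cells, 8.33% and 5.17% of the naive neuron-like cells, carried 77.4% of the Nts reads in CAST/Ei and 97.8% in C57BL/6, and held 38.7% and 85.7% of the Nts holders. The highest naive CAST/Ei cell, at 1131 CPM, lay in cluster 4, which carried 13.4% of the Nts reads. Other counts outside cluster 14 were lower, with 12 of 54 cells of cluster 1 (Mrgprb4 and Mrgpra3, receptors of itch neurons) at 12.5 CPM, against 0 of 18 cells of the C57BL/6 cluster 13, led by Mrgpra3 and Car8, at 1.26 CPM. Gpr151 was spread over several clusters. In CAST/Ei it was found in 12 of 27 cells of cluster 11 (Th and P2ry1, C-fibre low-threshold mechanoreceptors), 10 of 29 cells of cluster 7 (Mrgprd, nonpeptidergic nociceptors) and 6 of 26 cells of cluster 4. In C57BL/6 it was found in 9 of 31 cells of cluster 8 (Th) and 2 of 24 cells of cluster 12 (Mrgprd), and cluster 8 carried 63.3% of its reads. These clusters were built from genes other than the 5, in cells of which each preparation is 1 sample.

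**Figure D2:**
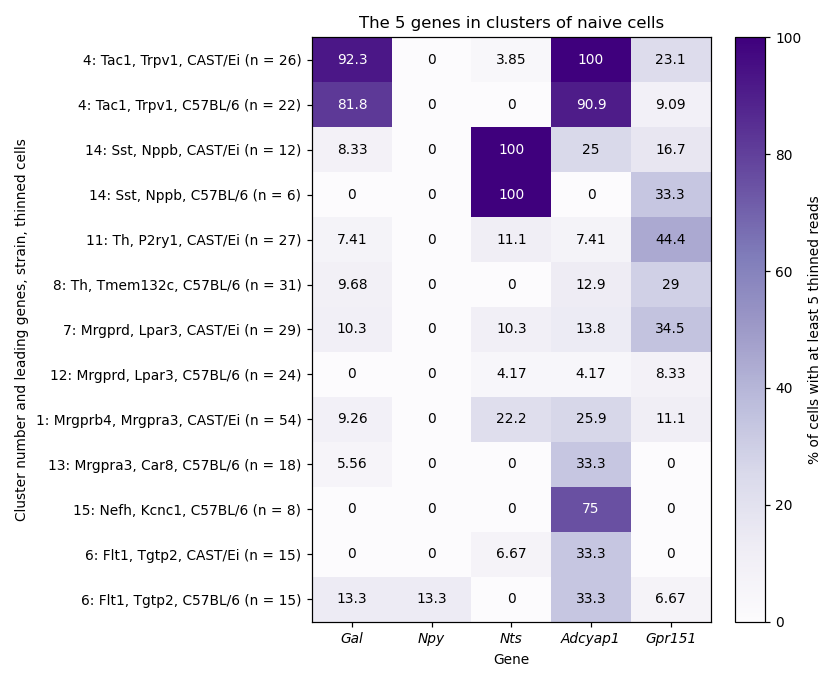
Percent of thinned naive cells with at least 5 reads of each of the 5 genes (columns), for each cluster and strain (rows, with the number of thinned cells). Gal and Adcyap1 are concentrated in cluster 4 (92.3% and 100% in CAST/Ei, 81.8% and 90.9% in C57BL/6), Nts in cluster 14 (100% in each strain), and Gpr151 is spread.

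The other genes of the holders described the same cells. Of naive CAST/Ei neuron-like cells that held Gal, 26 of 35 held Kit, the stem cell factor receptor, against 7.08% of those that did not, and in C57BL/6 the counts were 17 of 22 against 7 of 87. Trpv1 was held by 24 of 35 CAST/Ei Gal cells against 18.6% of the others, and by 18 of 22 C57BL/6 Gal cells against 21 of 87 others. The neuropeptide Y receptors parted by strain. Npy1r was held by 17 of 22 Gal cells against 2 of 87 others in C57BL/6, and by 11 of 35 against 1.77% in CAST/Ei, while Npy2r was held by 26 of 35 against 14.2% in CAST/Ei, and by 8 of 22 against 12 of 87 in C57BL/6. Among naive Nts cells, the serotonin receptor gene Htr1f was held by 14 of 31 against 0 others in CAST/Ei, and Sst by 6 of 7 against 0 others in C57BL/6. In cultured CAST/Ei neuron-like cells, 7 of 52 Gal cells held Kit against 1 of 2 others, and 7 of 52 held Trpv1 against 0 of 2 others. Sst was held there by 0 of 27 Nts cells against 1 of 27 others. In cultured C57BL/6 ones, 5 of 11 Gal cells held Kit, 0 of 11 held Trpv1 and 4 of 21 Nts cells held Sst. The markers themselves moved with culture. Of 5 listed peptidergic markers, Kit and Trpv1 among them, 5 were at least 2-fold lower in cultured CAST/Ei neuron-like cells, against 23.5% of all genes. In C57BL/6, 3 were lower, against 24.7%, and 1 was higher, against 20.4%. Low cultured shares thus do not show that a pairing was lost, and the difference between cultured and naive pairings was not tested.

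After culture the genes split between the 2 neuron-like clusters instead. Gpr151 marked cluster 3, the cells with Sprr1a and Sox11 in the lead: 19 of 27 CAST/Ei and 18 of 18 C57BL/6 cells held it, against 3 of 26 and 0 of 7 in cluster 5. In C57BL/6, cluster 3 carried 95.7% of the Gpr151 reads, whereas in CAST/Ei cluster 5 carried 56.3%, nearly all from the single cell named above. Npy leaned the other way, with 15 of 26 CAST/Ei and 2 of 7 C57BL/6 cells of cluster 5, against 6 of 27 and 0 of 18 of cluster 3. Cluster 5 carried 85.4% of the Npy reads in CAST/Ei and 91.3% in C57BL/6. Adcyap1 followed Npy, with 26 of 26 CAST/Ei and 7 of 7 C57BL/6 cells of cluster 5 at 882 CPM (873 to 892) and 1638 CPM (1608 to 1669). In cluster 3, it was held by 22 of 27 CAST/Ei and 4 of 18 C57BL/6 cells at 293 CPM (285 to 300.2) and 108.2 CPM (101.7 to 115.05).

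Some of the cultured against naive differences depended on the cluster. With cluster 3 alone as the cultured cells, Adcyap1 in C57BL/6 stood at a log2 ratio of -0.21, in place of 2.52 over both clusters, and with cluster 5 alone Gpr151 in C57BL/6 stood at -0.42, in place of 3.21. Gal reached both clusters in CAST/Ei, with 25 of 27 cells of cluster 3 and 26 of 26 of cluster 5 at 5648 CPM (5615 to 5680) and 3272 CPM (3254 to 3289). In C57BL/6 it was held by 5 of 18 cells of cluster 3 and 6 of 7 of cluster 5, and the median cell of cluster 3 had 5.63 CPM against 205 CPM in cluster 5. Nts was more frequent in cluster 3, with 17 of 27 CAST/Ei and 16 of 18 C57BL/6 cells, than in cluster 5, with 10 of 26 and 5 of 7. The 2 clusters also differed in other cells' markers, with the satellite and Schwann list at 3934 CPM in cluster 3 against 2751 CPM in cluster 5 of CAST/Ei, and at 3748 CPM against 2565 CPM in C57BL/6, whose part was not tested.

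**Figure D3:**
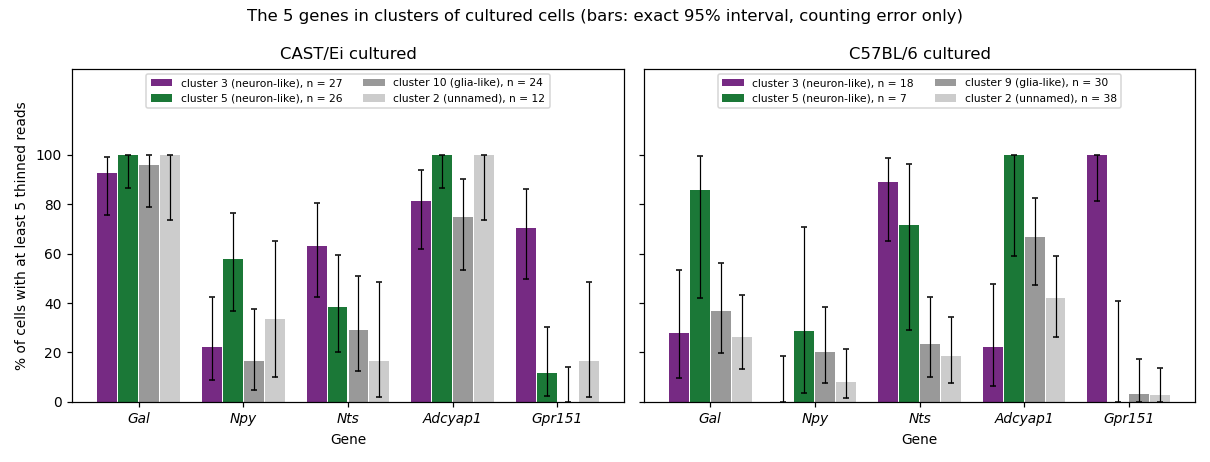
Percent of thinned cultured cells with at least 5 reads of each of the 5 genes, by cluster, in CAST/Ei (left) and C57BL/6 (right), with exact 95% intervals for counting error. Gpr151 is held by 70.4% of CAST/Ei and 100% of C57BL/6 cells of cluster 3 but by 11.5% and 0% of cluster 5, while Adcyap1 is held by 100% of cluster 5 in both strains.

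Cultured cells outside the neuron-like class also held reads of the peptide genes, and their shares are set beside those of neuron-like cells. In CAST/Ei, 23 of 24 glia-like cells held Gal (95.8%), at 463 CPM (456 to 470), against 52 of 54 neuron-like cells at 3987 CPM, so there the level and not the share separated the classes. In cluster 2 of CAST/Ei 12 of 12 cells held it, at 350.1 CPM. In C57BL/6, 12 of 33 glia-like cells held Gal (36.4%) at 37.8 CPM, close to the 42.3% of neuron-like cells at 1444 CPM. Adcyap1 was held by 75% of CAST/Ei and 66.7% of C57BL/6 glia-like cells, and Npy by 16.7% and 18.2%, against 90.7% and 40.7% of CAST/Ei neuron-like cells. In CAST/Ei cluster 2, 12 of 12 cells held Adcyap1, at 125.2 CPM, and 4 of 12 held Npy, at 15.7 CPM, so there too the levels, 671 and 120.5 CPM in neuron-like cells, and not the shares, set the classes apart. The C57BL/6 neuron-like shares of Adcyap1 (42.3%) and Npy (7.69%) lay below those of glia-like cells. The source of the reads was not tested, so these cannot be read as shares of neurons that express the 2 genes. Their levels still differed, with 724 CPM against 42.5 CPM for Adcyap1 and 19.7 CPM against 11.8 CPM for Npy in C57BL/6 neuron-like against glia-like cells.

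Nts and Gpr151 had higher shares in neuron-like cells. Nts was held by 29.2% of glia-like cells against 50% of neuron-like cells in CAST/Ei, and by 24.2% against 80.8% in C57BL/6. Gpr151 was held by 0 of 24 CAST/Ei and 1 of 33 C57BL/6 glia-like cells. In cluster 2 it was held by 2 of 12 CAST/Ei and 1 of 38 C57BL/6 cells, where 1 cell of each strain supplied 83.6% and 96.3% of the reads. Median depth before thinning was 1541330 reads in CAST/Ei and 729522 reads in C57BL/6 glia-like cells, against 856323 and 510919 reads in neuron-like cells. In CAST/Ei, the glia-like level as a percent of the neuron-like level was 11.6 for Gal, 11.5 for Nts, 13.8 for Npy and 20.9 for Adcyap1, beside 14.7 for Sprr1a, 18.6 for Stmn2 and 24.96 for Prph, genes used here as neuronal. For Gpr151 it was 3.04, and for the glial factor Sox10 it was 153.8. In C57BL/6 the same percent was 2.62 for Gal, 3.99 for Nts, 5.87 for Adcyap1, 4.95 for Gpr151 and 59.9 for Npy, beside 3.0 for Sprr1a, 6.22 for Stmn2 and 15.6 for Prph. Free RNA and transcripts of the glia-like cells themselves as sources were not tested.

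Single cells combined more of the 5 genes after culture. Of cultured CAST/Ei neuron-like cells, 41 of 54 held 3 or more of them, and none held 0, against 13 naive cells with 3 or more (8.78%) and 55 with 0. Of cultured C57BL/6 cells, 11 of 26 held 3 or more and none held 0, against 3 naive cells with 3 or more (2.75%) and 55 with 0. All 5 were held together by 4 cultured CAST/Ei cells. Cultured glia-like cells also held Gal (95.8% in CAST/Ei and 36.4% in C57BL/6) and Adcyap1 (75% and 66.7%). The source of the reads was not tested, so the counts per cell cannot be read as numbers of genes that a neuron expresses. How many of the 5 the other cultured cells held together was not counted. Pairs were set beside the count expected if the 2 genes were spread independently over the cells of a class. In naive cells, Gal and Adcyap1 met in 29 CAST/Ei cells, where 11.6 were expected, and in 21 C57BL/6 cells, where 7.47 were expected. Within cluster 4, 24 CAST/Ei cells held both against 24 expected, a count fixed in advance because all 26 cells held Adcyap1. In C57BL/6, 18 did against 16.4 expected, the most possible, as 18 of 22 cells held Gal and 20 held Adcyap1. These counts cannot show whether the 2 genes go together within cluster 4. In the other neuron-like cells 5 met against 2.07 in CAST/Ei and 3 against 0.782 in C57BL/6. With any thinned read counted, 55 CAST/Ei cells had both against 42.1 expected, and 28 C57BL/6 cells against 19.3. In cultured CAST/Ei cells nearly all cells held both, 49 against 47.2 expected, and in cultured C57BL/6 cells 8 did against 4.65 expected.

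Other pairs met less often than expected. Nts and Gal met in 4 naive CAST/Ei cells against 7.33 expected and in 0 naive C57BL/6 cells against 1.41 expected. In CAST/Ei, 1 cell of cluster 4 held both against 0.923 expected, and 3 of the other neuron-like cells did against 2.70. The shortfall there thus lay between cluster 4 and the other cells and was not seen within either. The C57BL/6 count expected is too small to show a shortfall. Adcyap1 and Gpr151 met in 4 of 26 cultured C57BL/6 cells against 8.04 expected, with Spearman's rho of -0.51 over these cells, and in 18 of 54 cultured CAST/Ei cells against 19.96 expected, with rho of -0.33. Within cluster 3 of C57BL/6 alone, 4 cells held both against 4 expected, a count fixed in advance because all 18 cells held Gpr151. Within cluster 3 of CAST/Ei 15 did against 15.5. Cells of a class share 1 preparation, and these counts are a description.

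**Figure D4:**
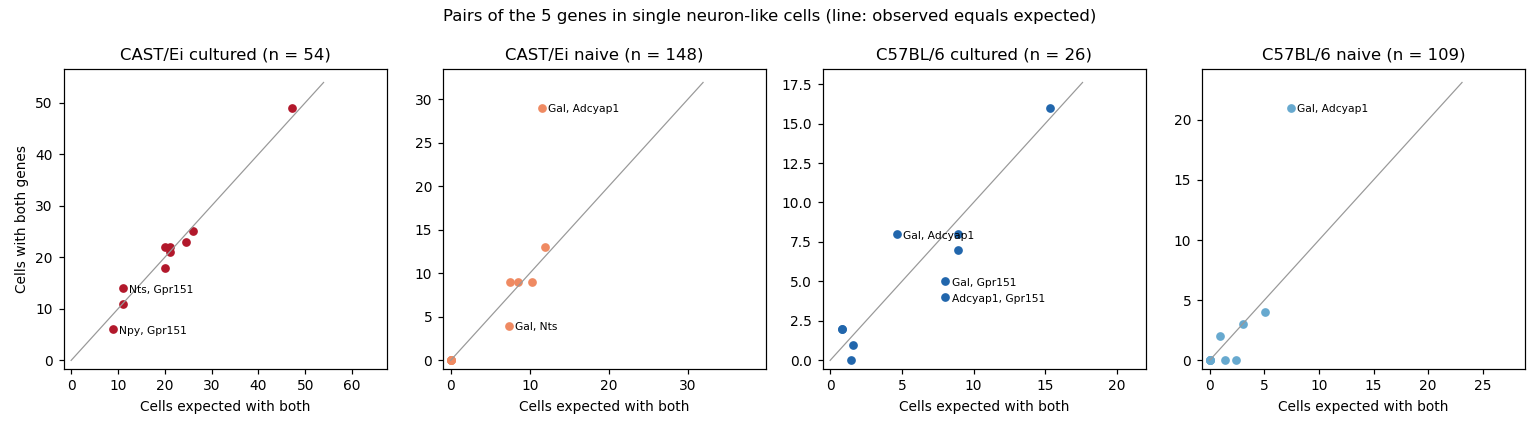
Number of thinned neuron-like cells that hold both genes of a pair, against the number expected from the 2 shares, for the 10 pairs in each of the 4 groups; the line marks equality. Gal with Adcyap1 lies far above the line in naive cells (29 against 11.6 in CAST/Ei, 21 against 7.47 in C57BL/6), and on it in cultured CAST/Ei cells.

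Between strains, none of the 5 genes differed by 2-fold in naive neuron-like cells, while Gal, Npy and Nts did in cultured ones. In naive neuron-like cells 0 of 5 were higher and 0 of 5 lower in CAST/Ei, where 7.23% of all genes were higher by that much and 6.2% lower. The log2 ratios of CAST/Ei over C57BL/6 in these cells were 0.30 for Gal, 0.69 for Nts, -0.44 for Adcyap1 and 0.69 for Gpr151, and Npy had 11 reads in CAST/Ei against 0 in C57BL/6 neuron-like cells. In cultured neuron-like cells, 2 of 5 were at least 2-fold higher in CAST/Ei, against 22.1% of all genes, and 1 of 5 lower, against 15.2%. Gal stood 2.76-fold higher at a log2 ratio of 1.46 and Npy 6.13-fold higher at 2.56, while Nts stood at -2.82, with 138.8 CPM in CAST/Ei against 987 CPM in C57BL/6. Adcyap1 (-0.11) and Gpr151 (-0.79) lay within 2-fold. In cultured cells outside the neuron-like class, Gal stood 15.7-fold higher in CAST/Ei, at 428 CPM against 27.3 CPM. Of all genes 0.0444% exceeded that ratio, whereas 12.8% exceeded the Gal ratio of neuron-like cells. Outside the class Npy stood 1.82-fold and Adcyap1 3.75-fold higher, Nts at a log2 ratio of -0.89 and Gpr151 at 0.54. The strain difference of Gal was thus not limited to neuron-like cells. With cells of all classes summed instead, 3 of 5 were higher in cultured CAST/Ei, against 15.6% of genes, and 1 lower, against 11.9%. In naive cells of all classes 0 of 5 were higher, against 6.71%, and 1 of 5, Npy, lower, against 8.08%, from 2 C57BL/6 cells of cluster 6.

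The strain order of Gal, Npy and Nts was the same within each cluster. In cluster 3 the log2 ratios of CAST/Ei over C57BL/6 were 1.62 for Gal, 3.65 for Npy and -2.36 for Nts, and in cluster 5 they were 1.71, 1.81 and -2.68. Single cells weighed in these values: 1 cell supplied 80.9% of the Npy reads of CAST/Ei cluster 3, and 1 cell 88.9% of the Gal reads of C57BL/6 cluster 3. Adcyap1 and Gpr151 turned round between the clusters, with 1.43 and -1.14 in cluster 3 and -0.89 and 2.64 in cluster 5. The Gpr151 value of cluster 5 rests on the CAST/Ei cell with most of the Gpr151 reads, and cluster 5 held only 10 C57BL/6 cells. Without the highest cell of each class, Gal stood at 2.76 and Gpr151 at -1.73 over both clusters. The reference genome is that of C57BL/6, and what CAST/Ei variants do to the counts of the 5 genes was not tested.

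The receptors of these peptides were thinly covered, with 4 of 14 listed genes in the table. In cultured against naive neuron-like cells, 1 was at least 2-fold higher and 2 lower in CAST/Ei, against 22.7% and 23.5% of all genes, with a median log2 ratio of -0.68, beside -0.01 over all genes. In C57BL/6 0 were higher and 3 lower, against 20.4% and 24.7%, with a median of -1.11 beside -0.17 over all genes. Galr1, the inhibitory galanin receptor, had 1.252 CPM in cultured against 26.97 CPM in naive CAST/Ei cells, and 0 reads in cultured C57BL/6 cells, which allows up to 0.178 CPM, against 21.05 CPM in naive ones. This galanin receptor gene was thus low in the classes in which the galanin gene was high. Npy2r stood at a log2 ratio of -1.29 in CAST/Ei and -0.92 in C57BL/6, Npy1r at 2.27 and -1.10, and Sort1 at -0.07 and -1.13.

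Among genes that process and store peptides, more stood lower than higher, while the 4 peptide genes stood higher. Of 17 in CAST/Ei, 2 were at least 2-fold higher and 9 lower, against 22.7% and 23.5% of all genes, with a median log2 ratio of -1.07. In C57BL/6, 3 were higher and 7 lower, against 20.4% and 24.7%, with a median of -0.59. Granule proteins were among the lower ones, with log2 ratios of -2.92 in CAST/Ei and -2.66 in C57BL/6 for Scg3, -3.60 and -1.45 for Chga, chromogranin A, and -2.18 and -2.75 for Scg5, the chaperone of the convertase Pcsk2. Pcsk2 itself stood at -1.93 and -1.13, and Pam, the amidating enzyme, lay within 2-fold at 0.21 and 0.25. Vgf, a granule protein and peptide precursor known to be raised by nerve growth factor, was an exception in both strains, with 35.9 CPM in cultured against 9.81 CPM in naive CAST/Ei cells and 84.3 CPM in cultured against 8.10 CPM in naive C57BL/6 cells. The convertase gene Pcsk5 was another, at 1.04 and 1.21.

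Most other neuropeptide genes of the ganglion that were measured stood lower. Of the 10 measured, 2 were at least 2-fold higher and 7 lower in CAST/Ei, against 22.7% and 23.5% of all genes, with a median log2 ratio of -1.87 beside -0.01 over all genes. In C57BL/6, 0 were higher and 6 lower, against 20.4% and 24.7%, with a median of -2.05 beside -0.17. Tac1 had 42.6 CPM in cultured C57BL/6 cells against 1095 CPM in naive ones, a log2 ratio of -4.65, and stood at -4.49 in CAST/Ei. Calca, one of the genes of the peptide CGRP, stood at -2.28 and -2.36, and its relative Calcb at -1.46 and -4.17. Sst, a leading gene of the cluster with most naive Nts reads, stood at -5.24 in CAST/Ei, where Nts was 2.07-fold higher. In C57BL/6 it stood at 0.81. Cartpt, the precursor of the CART peptide, was among the higher ones in CAST/Ei, at 1.43, and stood at 0.04 in C57BL/6. Of 24 injury factors and cytokines, 12 were at least 2-fold higher and 1 lower in CAST/Ei, against the same 22.7% and 23.5%, with a median of 0.99, and 15 were higher and 2 lower in C57BL/6, against 20.4% and 24.7%, with a median of 1.56. Higher in both strains were Sprr1a (8.65 and 9.14), Sox11 (4.16 and 3.86) and Gadd45a (3.43 and 3.55), while Atf3, the transcription factor that marks axotomized neurons, stood at 0.98 and 2.08. Atf3 was not limited to cultured cells that held Gal, being held by 45 of 52 Gal cells and 2 of 2 others in CAST/Ei, and by 10 of 11 and 15 of 15 in C57BL/6.

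**Figure D5:**
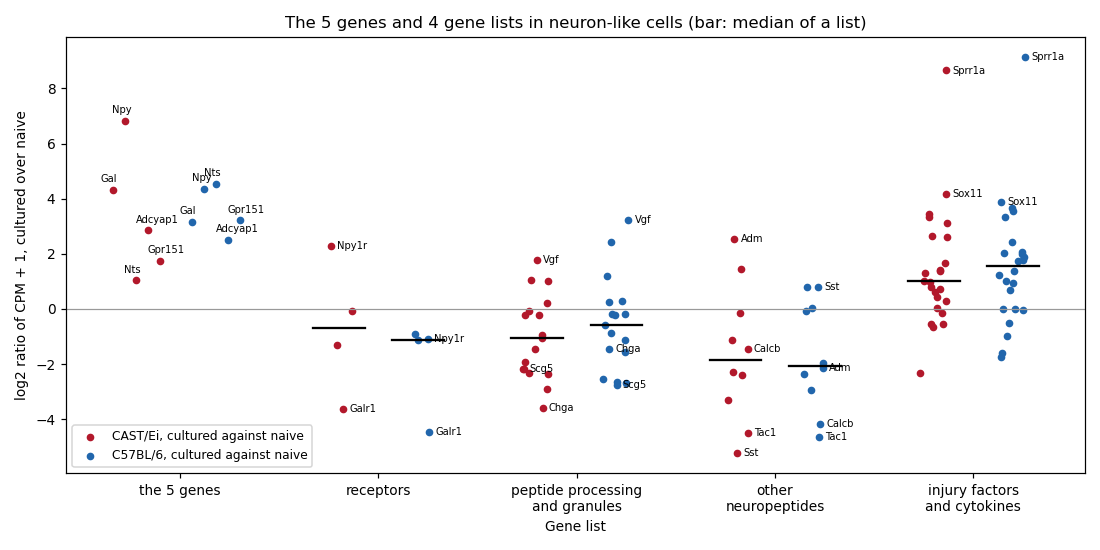
Log2 ratio of CPM + 1, cultured over naive neuron-like cells, for the 5 genes and for the measured genes of 4 lists, in CAST/Ei (red) and C57BL/6 (blue); bars are list medians. The 5 genes lie between 1.04 and 6.83, while the medians of peptide processing (-1.07 and -0.59) and of other neuropeptides (-1.87 and -2.05) lie below 0.

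Across the cultured neuron-like cells, 61 of CAST/Ei and 34 of C57BL/6, the genes most like each of the 5 were ranked among 10342 genes by the mean of both strains' Spearman's rho. Cells of a strain share preparation and depth, so these are descriptions. The genes named were also picked for being extreme among 10342, over few cells, and how far that alone reaches was not tested. For Gal the highest were Kcnk3, a background potassium channel (mean rho 0.36), Smad1, a mediator of BMP signals (0.35), Atp2b4, a calcium pump (0.35), Celf4 (0.33) and Tagln3 (0.33), with Adcyap1 in place 15 (0.30). The lowest were Acpp, the phosphatase of nonpeptidergic neurons (-0.54), Orc5 (-0.47) and Cd55 (-0.44). For Nts the highest were Dnase1l3 (0.54), Tspan8 (0.53), Msc (0.51), Myd88 (0.49) and Ftsj1 (0.48), and the lowest Nacc2 (-0.38), Stxbp6 (-0.36) and Gal itself (-0.34). Within cluster 3, Kcnk3 kept a rho with Gal of 0.66 in CAST/Ei and 0.52 in C57BL/6, and Dnase1l3 one with Nts of 0.59 and 0.83. Tagln3 had a rho with Gal there of 0.75 in CAST/Ei but -0.04 in C57BL/6. Over all cultured neuron-like cells, Smad1 had a rho with Gal of 0.12 in CAST/Ei and 0.58 in C57BL/6. Gal had a rho of -0.22 in CAST/Ei and 0.29 in C57BL/6 with the reads of a cell. Dnase1l3 and Tspan8 were also among the 10 leading genes of the naive C57BL/6 cluster 13, in which no cell held Nts.

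For Adcyap1 the highest were Calm3, a calmodulin gene (0.61), Rbms3 (0.58), Kif21a (0.57), Ywhah (0.57) and Ywhag (0.55), and the lowest Mina (-0.62), Ints4 (-0.60) and Hsd17b12 (-0.57). Within cluster 3 the rho with Calm3 was 0.52 in CAST/Ei and 0.69 in C57BL/6, but that with Kif21a was -0.02 and 0.36, so part of the likeness lay between the clusters. Adcyap1 also had a rho of 0.54 in CAST/Ei and 0.46 in C57BL/6 with the reads of a cell. For Gpr151 the highest were Clgn, a chaperone (0.62), 5430417L22Rik (0.62), Phax (0.61), the pseudogene Tubb2a-ps2 (0.61), which may share reads with tubulin genes, and Tuba1a (0.61). The lowest were Vamp2 (-0.52), Rac1 (-0.52) and Rn45s (-0.45). Gpr151 had a rho of 0.69 in CAST/Ei and 0.32 in C57BL/6 with the number of genes detected in a cell. Within cluster 3 the rho with Clgn was 0.38 and 0.57 and that with Tuba1a 0.27 and 0.54. Lower there were 5430417L22Rik (0.17 and 0.34), Phax (0.13 and 0.41) and Tubb2a-ps2 (0.19 and 0.30). Vamp2 (-0.14 and -0.21), Rac1 (-0.06 and -0.42) and Rn45s (0.03 and -0.20) were weaker there too. For Gpr151 too, part of the likeness therefore lay between the clusters. Npy was held by too few cultured C57BL/6 cells, 2, to be ranked.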

How the data were processed

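Single cells of dorsal root ganglia were captured, lysed and reverse transcribed on a Fluidigm C1 chip and sequenced on an Illumina instrument, per the labels' protocols. What the authors deposited is a table of raw counts of reads, with no molecular identifiers, for 11251 genes and 516 cells. Each column was matched to its sample by title, and 0 columns stayed unused. The submitters' processing notes list Bowtie2, SAMtools and mm10, with no version or role. How reads were counted, with which annotation and after which filters, is not given in the sources used here. Each gene has a read in at least 60 cells. No 2 columns were identical.

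Reads were summed per group or class as CPM and compared by log2 ratios of CPM + 1, with 2-fold as the size named. Intervals (95%) are exact Poisson for sums and Clopper-Pearson for shares. A count of 0 was limited at 3 reads or cells. Cells were thinned to 200000 reads. Clusters came from 2000 variable genes without the 5, 20 principal components, 15 neighbours and Leiden at resolution 1 (15 clusters, leidenalg 0.10.2, scikit-learn 1.9.0, Python 3.11.15). A cluster took the name of its highest marker list unless its leading 10 genes held more markers of another class. Clusters 3, 5 and 9 were named with no marker of their class among those 10. No doublet caller was run. The ratios were checked on simulated counts, and the thinning on some of the measured cells at a lower depth. Genes named were the 5, those of the 4 lists, subtype markers, and for each gene held by at least 10 cultured cells of both strains the 5 most and 3 least alike. The genes and lists were chosen with earlier results of these data known. Promoters are from RefSeq, with 4 of the 5 symbols matched. Alternatives changed the scaling, pseudocount, low-level filter, mean over cells, thinning, read minimum, clustering and class rule, and left out the highest cell or the cells richest in glial markers. A gene of the lists enters their counts and medians and is not reported here on its own.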

Additional observations from a re-analysis of the deposited data

Results flagged for a closer look

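For Npy1r and Adm, all cells of a class summed, the cultured against naive difference went in opposite directions in the 2 strains. The difference between strains was not tested, since each group is 1 sample. Npy1r, a neuropeptide Y receptor, had 66.1 CPM in cultured against 12.9 CPM in naive CAST/Ei neuron-like cells, and 22.96 CPM in cultured against 50.4 CPM in naive C57BL/6 ones, so that the log2 ratios, 2.27 and -1.10, were 3.37 apart. It was held by 14 of 54 cultured and 13 naive CAST/Ei cells, and by 5 of 26 cultured and 19 naive C57BL/6 cells. Thinned naive cells were far more numerous than cultured ones. The share of holders was thus higher after culture in CAST/Ei and not lower in C57BL/6, where only the summed level was lower. A single cell supplied 45.2% of the cultured and 30.4% of the naive CAST/Ei reads. In C57BL/6, 1 cell supplied 37.6% of the cultured and 1 cell 33.6% of the naive reads. Adm, the adrenomedullin gene, had 36.3 CPM in cultured against 5.40 CPM in naive CAST/Ei cells and 0.947 CPM in cultured against 7.62 CPM in naive C57BL/6 cells, log2 ratios 4.69 apart, with 96.9% of the cultured CAST/Ei reads in 1 cell.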

How the results depend on the processing

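No paired analysis was possible because the replicate numbers are numbers of single cells, and with 1 sample a group no replicate could be left out. Alternatives that split clusters 3 and 5, or counted cluster 10 as neuron-like, were chosen after seeing the data. Of the cultured against naive ratios of at least 2-fold, those that reversed were Adcyap1 in C57BL/6, at -0.21 with cluster 3 only, and Gpr151 in C57BL/6, at -0.42 with cluster 5 only; the smaller ratio of Gal over all C57BL/6 cells, 0.92, was -0.26 without the highest cell of each group. Among neuron-like cells, without the highest cell of each group the genes at least 2-fold higher in cultured CAST/Ei numbered 3 in place of 5. In cultured cells, 2 genes in place of 1 were at least 2-fold lower in CAST/Ei than in C57BL/6 with the mean of cell CPM, without the highest cell, with cluster 3 only and with cluster 10 as neuron-like. In naive cells, 1 gene in place of 0 was higher in CAST/Ei with the mean of cell CPM and without the highest cell, over neuron-like and over all cells alike. Over all cells, 1 gene in place of 3 was higher in cultured C57BL/6 with a pseudocount of 10 CPM, and 0 genes in place of 1 were lower in naive CAST/Ei than in naive C57BL/6 with that pseudocount, the mean of cell CPM or without the highest cell. At 20 thinned reads, shares over all cells were higher for 3 genes in place of 5 in cultured against naive C57BL/6 and in cultured CAST/Ei against cultured C57BL/6. In naive neuron-like cells, 5 genes in place of 3 had the higher share in CAST/Ei at 1 thinned read or at 10 CPM. At 1 thinned read, 0 pairs in place of 1 exceeded 1.5 times their independent count in naive CAST/Ei, cultured C57BL/6 and naive C57BL/6 cells. With a pseudocount of 10 CPM, 1 processing gene in place of 2 was higher in CAST/Ei, and 1 receptor in place of 3 lower in C57BL/6, as with median-of-ratios scaling. The cause was not tested. Median-of-ratios scaling put the median log2 ratio of all genes in cultured against naive C57BL/6 neuron-like cells at -0.02, in place of -0.17. Without the neuron-like cells richest in glial markers, which left 46 cultured CAST/Ei and 25 cultured C57BL/6 ones, the 5 genes stood at 0.69 to 6.86 in CAST/Ei and 2.98 to 4.71 in C57BL/6. Of the values of single genes, pairs and medians, 297 were counted as moved, 200 as the same and 2 as reversed. Values of single genes were set against their counting interval, and those of the Gal and Adcyap1 pair against a fixed tolerance. Every alternative median of all genes was counted as moved.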
